A study of Rattus norvegicus with 56 samples.

Results

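Cyclic nucleotide phosphodiesterases were followed in the dorsal striatum of 56 male Crl:OFA (Sprague Dawley) rats, each measured on 1 Affymetrix Rat230_2 array. The members were Pde10a, Pde1b, Pde1c, Pde2a, Pde4a, Pde4b, Pde4d, Pde7b and Pde8b, and every probe set annotated to 1 of these 9 gene symbols was taken, which gave 16 probe sets among 31099 on the array and 9 of 14218 gene symbols. Lesioned rats had a bilateral nigral loss after an AAV vector that overexpressed alpha-synuclein, and sham rats had received the same kind of vector carrying GFP, so every rat of the series had a vector injection. Daily subcutaneous injections of saline or of benserazide and L-dopa methyl ester (50 mg/kg of the ester) began 5 weeks later and lasted 3 weeks. Place conditioning followed, in sessions of 40 min, with pramipexole (ppx, a D2/D3 dopamine receptor agonist) at 2 mg/kg on alternate days or with saline throughout, and the tissue was taken 24 or 48 h after the last pramipexole or saline dose. The 8 groups of 7 rats are named by lesion, treatment and conditioning: Lesion L-dopa ppx, Lesion L-dopa saline, Lesion saline ppx, Lesion saline saline, Sham L-dopa ppx, Sham L-dopa saline, Sham saline ppx and Sham saline saline.

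Phosphodiesterases hydrolyse cAMP and cGMP and so end the signals that dopamine receptors, adenosine receptors and nitric oxide start. In the striatum, D1 receptors raise cAMP in one class of medium spiny neurons and D2 receptors lower it in the other, and both classes are rich in Pde10a, which degrades both cyclic nucleotides. Pde1b and Pde1c are activated by calcium and calmodulin, Pde2a is stimulated by cGMP, the Pde4 enzymes are the cAMP-specific targets of rolipram, and Pde7b and Pde8b are also cAMP-specific.

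The arrays with sample numbers 1 to 37 and 38 to 56 stand apart on a small share of probe sets; the labels name no such boundary, which was seen in the signals. Of 18625 probe sets tested, 15 (0.0805%) had no overlap between these 2 sets of arrays, and no phosphodiesterase probe set was among them. The first set holds all 28 lesioned rats, the Sham L-dopa ppx rats and 2 Sham L-dopa saline rats, so lesion and array set largely coincide and drug effects are read inside each set. Rat 2 (Lesion L-dopa ppx) stood apart on the microglia list, with a mean of 2.69 log2 units above the average array against 0.42 in the next rat, and none of its 10 tested phosphodiesterase values lay outside the range of the other 6 rats of its group. Mean log2 signals of medium spiny neuron markers ran from 5.14 (Chrm4) to 10.8 (Drd1) in the D1 list, where 8 of 8 passed the signal filter, and from 8.32 (Gpr6) to 12.2 (Penk) in the D2 list, with 4 of 6 on the array. In the list of cerebral cortex markers the signals ran from 1.45 for Tbr1 to 12.2 for Sv2b. Because the tissue is bulk, fewer cells of a type and less RNA per cell cannot be told apart.

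Of the 16 probe sets, 10 from 7 genes exceeded a mean log2 signal of 4.99, the 40th percentile of the array, and were tested. The other 6 had low signals: 3.94 and 2.65 for Pde1c, 4.91 and 3.22 for the other Pde4d probe sets, 1.22 for Pde7b and 4.68 for the second Pde8b probe set (means of log2 signal over 56 rats). Pde1c and Pde7b therefore had no tested probe set. Hybridisation differs between probe sets, so a signal is compared only with the same probe set in other rats. The 2 Pde10a probe sets averaged 11.16 (1368438_at, spread within groups 0.18, SD) and 9.17 (1370669_a_at, SD 0.27), and the 2 Pde1b probe sets averaged 10.86 (1384203_at, SD 0.19) and 6.57 (1387680_at, SD 0.38). Pde2a was measured by 1 probe set at 10.39 (1368089_at, SD 0.09), the narrowest spread of the 10. For the Pde4 genes the tested signals were 5.72 for Pde4a (1368670_a_at, SD 0.22), 9.42 and 7.90 for Pde4b (1374157_at, SD 0.11, and 1369044_a_at, SD 0.16) and 7.69 for Pde4d (1392968_at, SD 0.16). Pde8b stood at 7.03 (1392088_at, SD 0.18).

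Agreement between probe sets of a gene was described by Pearson's r over the deviations of the 56 rats from their group means, with Sham L-dopa saline divided by array set. The points share arrays and their scaling, so r is a description. For Pde10a r was 0.87, and it stayed at 0.85 without rats 22 and 9, the farthest from the median Pde10a deviation, with 0.90 in numbers 1 to 37 and 0.81 in numbers 38 to 56. The Pde1b pair gave 0.59, with 0.78 in the first set and 0.44 in the second, which holds rat 53 with the lowest 1387680_at signal of all rats (4.67). The Pde4b pair gave 0.54. In contrast, the tested Pde4d probe set had r of -0.16 with 1370569_at and 0.45 with 1368750_a_at, and the Pde8b pair had 0.28, so for these genes the statements below rest on 1 probe set each. The 2 Pde1c probe sets, both low, had r of 0.01.

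**Figure D1:**
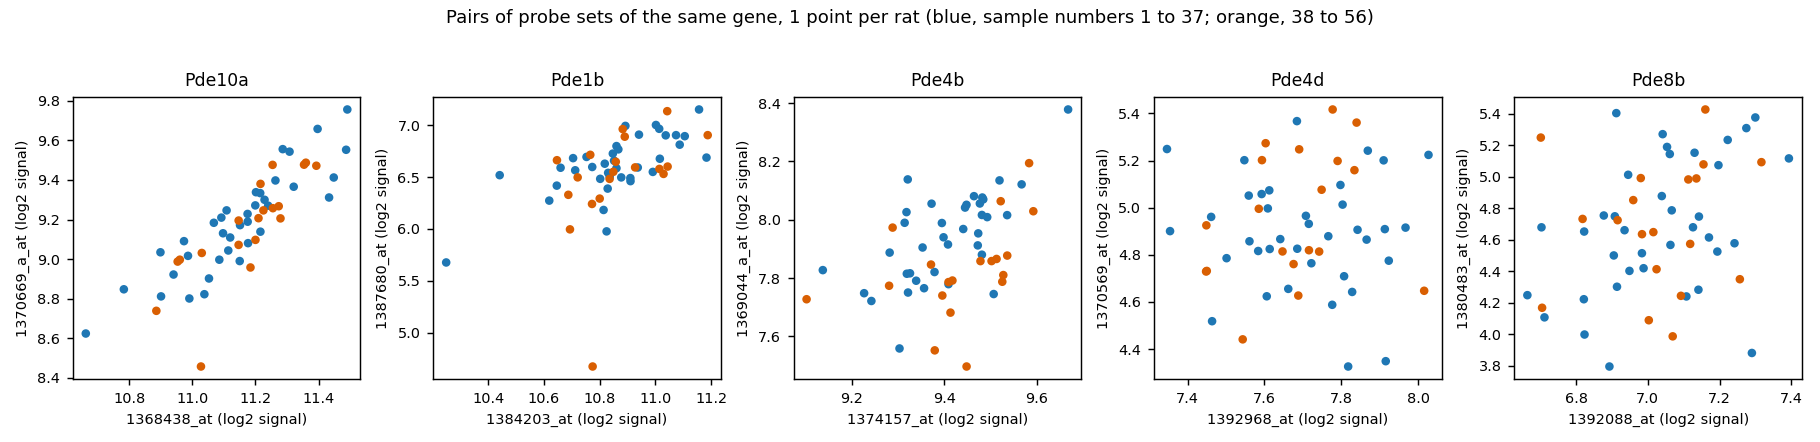
Log2 MAS5 signals of pairs of probe sets of the same gene, 1 point per rat for 56 rats; axes give the log2 signal of each probe set and colours the sample numbers 1 to 37 and 38 to 56. The Pde10a points follow a line (r = 0.85 over the points shown, 0.87 within groups), while the Pde8b points are scattered (r = 0.31 over the points shown, 0.28 within groups).

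Windows of 250 bases before the annotated start sites were read for Pde10a and Pde2a, since these genes vary together between rats (below). The search was for the half-site of the cAMP response element, TGACG or its reverse complement CGTCA, written in capitals below. The sequences are from RefSeq on the GRCr8 build, each given 5′ to 3′ on the gene's strand.
Pde10a window at chr1:54765669-54765918 (minus strand): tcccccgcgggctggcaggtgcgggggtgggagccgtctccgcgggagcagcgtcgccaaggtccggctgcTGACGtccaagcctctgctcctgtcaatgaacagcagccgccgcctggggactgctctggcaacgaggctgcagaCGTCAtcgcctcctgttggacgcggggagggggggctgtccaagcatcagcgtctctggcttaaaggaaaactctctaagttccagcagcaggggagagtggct
Pde10a window at chr1:54501207-54501456 (minus strand): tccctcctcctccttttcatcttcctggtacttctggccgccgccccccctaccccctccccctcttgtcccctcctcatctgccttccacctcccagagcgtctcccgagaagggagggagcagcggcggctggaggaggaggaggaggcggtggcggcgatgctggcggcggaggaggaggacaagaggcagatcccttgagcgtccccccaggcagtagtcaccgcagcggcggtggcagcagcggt
Pde2a window at chr1:165235373-165235622 (plus strand): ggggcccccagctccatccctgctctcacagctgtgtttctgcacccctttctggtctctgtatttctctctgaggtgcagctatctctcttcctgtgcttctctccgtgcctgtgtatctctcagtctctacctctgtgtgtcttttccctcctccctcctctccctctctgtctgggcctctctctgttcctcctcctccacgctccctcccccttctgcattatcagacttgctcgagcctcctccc
Pde2a window at chr1:165265759-165266008 (plus strand): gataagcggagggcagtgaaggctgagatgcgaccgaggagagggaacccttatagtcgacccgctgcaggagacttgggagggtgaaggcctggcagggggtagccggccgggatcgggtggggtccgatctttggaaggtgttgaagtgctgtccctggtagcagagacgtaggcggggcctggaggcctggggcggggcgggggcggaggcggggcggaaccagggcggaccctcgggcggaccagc

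One of the Pde10a windows holds 2 half-sites, at positions -179 and -104 from the start site, and the other 3 windows shown hold none. Over the 7 members with an entry, 5 of 17 windows held a half-site, in Pde10a, Pde4a and Pde4d, against 18.2% of 33469 windows of the whole table. A match is a run of letters and was not tied to any measurement here. Pde1b and Pde7b had no entry.

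Across the 8 groups the means of the 10 tested probe sets spanned between 0.07 and 0.50 log2 units, and none of the 10 passed the tests below. For Pde10a (1368438_at), the lowest, median and highest signals were 10.90, 11.15 and 11.49 in Lesion L-dopa ppx, 10.78, 11.20 and 11.29 in Lesion L-dopa saline, 10.94, 11.17 and 11.32 in Lesion saline ppx and 10.66, 11.24 and 11.49 in Lesion saline saline. In the sham groups they were 10.90, 11.10 and 11.43 with both drugs, 11.09, 11.22 and 11.36 with L-dopa alone, 10.95, 11.15 and 11.35 with pramipexole alone and 10.89, 11.21 and 11.39 with neither. All 8 groups overlap, and their means span 0.11 log2 units, which is 0.602 of the SD within groups.

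Pde1b (1384203_at) ran from 10.71 through a median of 10.84 to 11.18 in Lesion L-dopa ppx, from 10.44 through 10.86 to 11.01 in Lesion L-dopa saline, from 10.62 through 10.91 to 11.04 in Lesion saline ppx and from 10.25 through 10.99 to 11.16 in Lesion saline saline. The sham groups lay inside 10.65 and 11.19, with medians of 10.83 (both drugs), 10.88 (L-dopa), 10.80 (pramipexole) and 10.84 (neither). The group means span 0.07, so 1384203_at had the smallest span of the 10 tested probe sets, both in log2 units and relative to its SD (0.392). The other Pde1b probe set, 1387680_at, had the widest span of the 10 in log2 units, 0.50 or 1.32 SD.

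Pde2a had medians of 10.40, 10.41, 10.40 and 10.50 in the lesioned groups (both drugs, L-dopa, pramipexole and neither) and of 10.33, 10.40, 10.38 and 10.40 in the sham groups in the same order. Its lowest value, 10.12 in rat 22, and its highest, 10.60 in rat 55, both came from groups without drugs. Pde4a (1368670_a_at) had medians of 5.56, 5.67, 5.64 and 5.61 in the lesioned groups and of 5.62, 5.85, 5.70 and 5.86 in the sham groups. These differences lie within the overlapping ranges of the groups.

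Pde4b had medians of 9.38, 9.40, 9.33 and 9.47 (1374157_at) and of 7.82, 7.78, 8.01 and 8.02 (1369044_a_at) in the lesioned groups in that order. The sham medians were 9.41, 9.48, 9.42 and 9.41 for the first probe set and 7.92, 7.86, 7.85 and 7.79 for the second. Of the 10 tested probe sets, the second had the widest span of group means relative to its spread, 0.23 log2 units or 1.48 SD, with the highest mean, 8.04, in Lesion saline saline and the lowest, 7.81, in Sham saline saline.

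Pde4d (1392968_at) had medians of 7.59, 7.80, 7.71 and 7.64 in the lesioned groups and 7.78, 7.68, 7.75 and 7.54 in the sham groups. Pde8b (1392088_at) had 7.13, 7.04, 7.06 and 6.90 in the lesioned groups and 6.93, 7.14, 7.02 and 7.02 in the sham groups. The low signals of Pde1c (1388020_a_at, group means from 3.72 to 4.32) and Pde7b (from 0.96 to 1.54) overlapped in all groups as well and were not tested. Among the other low probe sets, group means spanned 1.65 log2 units for Pde4d 1368750_a_at, with an SD within groups of 0.98, and 1.05 for Pde1c 1371219_a_at, with an SD of 0.84. For Pde8b 1380483_at they spanned 0.45, with an SD of 0.42. Pde4d 1370569_at, just below the filter, spanned 0.43 log2 units, from 4.73 in Sham saline saline to 5.16 in Sham saline ppx. At 1.84 SD this was the widest span of the 16 probe sets relative to spread, and it was not tested.

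**Figure D2:**
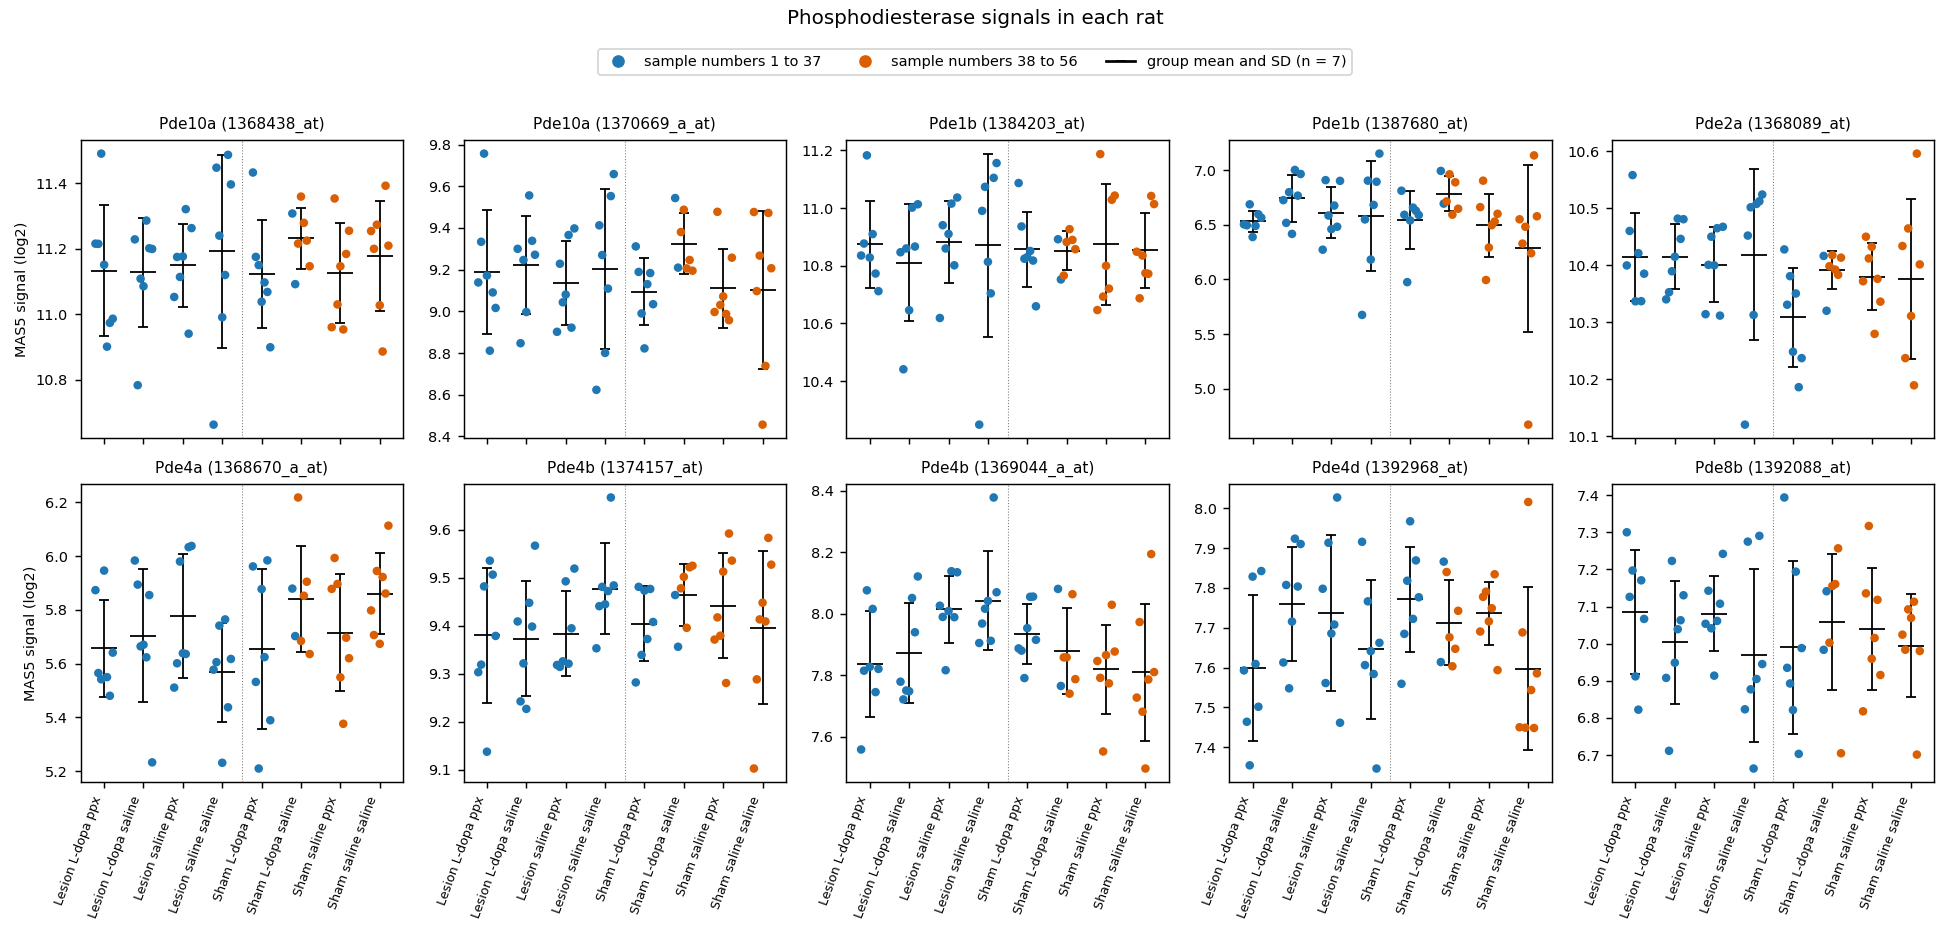
Log2 MAS5 signal of the 10 tested phosphodiesterase probe sets in each of 56 rats, by group (lesioned groups left of the dotted line, sham groups right); points are rats, coloured by sample number, and bars give the mean and SD of 7 rats. Group ranges overlap in every panel, and a single low rat stretches the Pde1b probe set 1387680_at (4.67 in rat 53).

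A moderated F test over the 8 groups (limma, two-sided, Benjamini-Hochberg over all 18625 probe sets) called 0 of the 10 phosphodiesterase probe sets at an adjusted p under 0.05, against 1.99% of all probe sets. At an unadjusted p under 0.05 it had 1 of 10, Pde4b 1369044_a_at (limma adjusted p = 0.303), against 15.7% of all. Over the 20 comparisons, 0 of 200 tests of the 10 probe sets passed and 13 (6.5%) had an unadjusted p under 0.05, with a smallest adjusted p of 0.169. Over all probe sets and the same comparisons, 0.465% of tests passed and 8.86% had an unadjusted p under 0.05.

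For the lesion over all rats (28 against 28), 0 of 10 probe sets were called by limma, against 5.07% of all probe sets, and 0 had an unadjusted p under 0.05, against 19.7% of all. Pde10a averaged 11.15 ± 0.20 in lesioned rats and 11.16 ± 0.15 in sham rats, and Pde1b averaged 10.86 ± 0.21 in lesioned rats and 10.86 ± 0.14 in sham rats (SD, n = 28). The 95% intervals of the lesion to sham ratio ran from 0.927 to 1.06 for Pde10a and from 0.935 to 1.07 for Pde1b. Pde2a averaged 10.41 ± 0.09 in lesioned and 10.36 ± 0.09 in sham rats, a difference of 0.05 ± 0.03 (SE, limma adjusted p = 0.301). The median difference of the 10 was 0.01, and that of all tested probe sets was -0.01. Since lesioned rats lie in 1 array set, the fit with the array set as a block is given too. Only Sham L-dopa saline has rats in both sets, so the block takes the set step from 2 against 5 rats. In that fit the difference was 0.02 ± 0.11 for Pde10a and 0.03 ± 0.11 for Pde1b. Among the marker lists, limma called Penk of the 4 tested D2 neuron markers (0.11 ± 0.04, adjusted p = 0.0490) in this comparison. It also called Sv2b of the 10 tested cortex markers (-0.23 ± 0.07, adjusted p = 0.0301). The cortex list as a whole did not follow Sv2b. Its 12 markers on the array deviated from the average array by a mean of 0.05, 0.18, 0.08 and -0.23 in the lesioned groups (both drugs, L-dopa, pramipexole and neither). In the sham groups the means were 0.03, 0.05, -0.01 and -0.15 in that order. The part of Penk and Sv2b in the phosphodiesterase values was not tested.

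Over all rats, limma called 0 of 10 probe sets for L-dopa, against 0.215% of all, and 0 of 10 for pramipexole, against 0.0376% of all. Both comparisons cross the array sets in sham rats. At an unadjusted p under 0.05 there were 0 of 10 in each, against 10.9% of all for L-dopa and 5.08% for pramipexole. Between the 2 and the 5 Sham L-dopa saline rats of the first and the second array set limma called 0 of 10, against 0.0859% of all, and again 0 of 10 had an unadjusted p under 0.05, against 3.81% of all. In that comparison the Pde10a difference was -0.05 ± 0.15 and the Pde1b difference was -0.04 ± 0.15, with 2 rats on one side.

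Without drugs, lesioned rats were compared with sham rats of the other array set, so lesion and array set cannot be told apart in this comparison. limma called 0 of 10 probe sets, against 1.07% of all, and 2 of 10 had an unadjusted p under 0.05, against 13.7% of all. Pde4b 1369044_a_at had 7.90, 8.02 and 8.38 as lowest, median and highest signal in Lesion saline saline, against 7.50, 7.79 and 8.19 in Sham saline saline. The difference was 0.23 ± 0.08 (SE, limma adjusted p = 0.169), and 7 of 7 lesioned rats lay above the sham mean. With the array set as a block, a step again taken from 2 against 5 rats, it was 0.17 ± 0.16 (limma adjusted p = 0.997). Without rat 27, the highest lesioned rat, it was 0.18 ± 0.08, and without sham rat 55 it was 0.30 ± 0.08 (limma adjusted p = 0.0525). The other Pde4b probe set differed by 0.08 ± 0.06.

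Pde4a had 5.23, 5.61 and 5.76 in Lesion saline saline, against 5.67, 5.86 and 6.11 in Sham saline saline. The difference was -0.29 ± 0.11 (SE, limma adjusted p = 0.218), and 7 of 7 lesioned rats lay below the sham mean, although the ranges overlap. The block fit gave -0.22 ± 0.21. RNA quality, taken as the 3 prime minus 5 prime control signal, differed between these groups, with a mean of 0.807 (0.757 to 0.852) in Lesion saline saline and 1.01 (0.841 to 1.14) in Sham saline saline. With it as a covariate the Pde4a difference was -0.26 ± 0.13 (limma adjusted p = 0.604) and the Pde4b 1369044_a_at difference 0.22 ± 0.09 (limma adjusted p = 0.501).

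With pramipexole alone, 0 of 10 probe sets were called by limma, against 0.789% of all, and 1 of 10 had an unadjusted p under 0.05, against 11.7% of all. Pde4b 1369044_a_at averaged 8.01 ± 0.11 in Lesion saline ppx and 7.82 ± 0.14 in Sham saline ppx (SD, n = 7), a difference of 0.20 ± 0.08 (limma adjusted p = 0.317) that also crosses the array sets.

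The comparison of lesion and sham with both drugs lies inside numbers 1 to 37. limma called 0 of 10 probe sets, against 0% of all, and 1 of 10 had an unadjusted p under 0.05, against 6.79% of all. That was Pde4d (1392968_at), with 7.35, 7.59 and 7.84 in Lesion L-dopa ppx and 7.56, 7.78 and 7.97 in Sham L-dopa ppx, a difference of -0.17 ± 0.08 (limma adjusted p = 0.735). Pde2a had 10.34, 10.40 and 10.56 in Lesion L-dopa ppx and 10.19, 10.33 and 10.43 in Sham L-dopa ppx. Its difference was 0.11 ± 0.05 (limma adjusted p = 0.735), with 7 of 7 lesioned rats above the sham mean. Pde4b 1369044_a_at differed by -0.10 ± 0.08 here, the opposite sign to its difference between rats without drugs.

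L-dopa was compared with saline in 14 against 14 lesioned rats, all in numbers 1 to 37. limma called 0 of 10 probe sets, against 0.00537% of all, and 1 of 10 had an unadjusted p under 0.05, against 10.3% of all. Pde10a averaged 11.13 ± 0.18 with L-dopa and 11.17 ± 0.22 with saline (SD, n = 14), a difference of -0.04 ± 0.07. Pde1b (1384203_at) averaged 10.84 ± 0.18 with L-dopa and 10.88 ± 0.24 with saline, a difference of -0.03 ± 0.07. The 95% intervals of the ratio were 0.885 to 1.07 for Pde10a and 0.887 to 1.08 for Pde1b. Pde2a averaged 10.41 ± 0.07 with L-dopa and 10.41 ± 0.11 with saline, and its interval of 0.953 to 1.06 was the tightest of the 10.

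The probe set under an unadjusted p of 0.05 was Pde4b 1369044_a_at, singled out here after its values were seen. It ran from 7.56 through a median of 7.82 to 8.12 in lesioned rats with L-dopa, and from 7.82 through 8.01 to 8.38 in lesioned rats with saline. The groups overlap, and 11 of 14 L-dopa rats lay below the saline mean. The difference was -0.17 ± 0.06 (limma adjusted p = 0.287). It was -0.17 ± 0.08 in saline-conditioned rats and -0.18 ± 0.08 in pramipexole-conditioned rats, where limma called 0.0161% and 0% of all probe sets. Without rat 27 the difference over all lesioned rats was -0.15 ± 0.06. The other Pde4b probe set, 1374157_at, had -0.05 ± 0.04 (limma adjusted p = 0.693).

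Marker scores and RNA quality are given beside this Pde4b value, and differences in these measures between the groups were not tested. The cerebral cortex score (mean deviation from the average array of 12 of 13 listed markers, 10 of them above the signal filter) averaged 0.11 in lesioned rats with L-dopa and -0.07 in lesioned rats with saline, with ranges of -0.51 to 0.56 and -0.91 to 0.53. The D2 medium spiny neuron score (4 of 6 listed markers) averaged -0.01 with L-dopa and 0.08 with saline. With the cortex score as a covariate the Pde4b difference was -0.13 ± 0.05, and with the D2 score, an alternative chosen after seeing the data, it was -0.13 ± 0.05. The D2 score ranged from -0.43 to 0.42 with L-dopa and from -0.51 to 0.43 with saline. The D1 score averaged -0.07 with L-dopa and 0.04 with saline. RNA quality, the 3 prime minus 5 prime control signal, averaged 0.885 ± 0.08 with L-dopa and 0.805 ± 0.06 with saline (SD, n = 14), and with it as a covariate the Pde4b difference was -0.17 ± 0.06 (limma adjusted p = 0.517). The part of the D1 cells in the difference was not tested.

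Pramipexole against saline conditioning in lesioned rats (14 against 14) gave 0 of 10 calls by limma, against 0% of all, and 0 of 10 at an unadjusted p under 0.05, against 6.37% of all. The differences ran from -0.09 ± 0.14 for Pde1b 1387680_at to 0.10 ± 0.07 for Pde8b, where 11 of 14 pramipexole rats lay above the saline mean. Pde8b had 6.82, 7.09 and 7.30 with pramipexole and 6.66, 6.95 and 7.29 with saline. For Pde10a the averages were 11.14 ± 0.16 with pramipexole and 11.16 ± 0.23 with saline (SD, n = 14), with a 95% interval of the ratio from 0.898 to 1.09. In L-dopa rats alone limma called 0.0161% of all probe sets and 0 of 10 phosphodiesterase probe sets, and in saline-treated rats it called 0% and 0 of 10, with 0 of 10 at an unadjusted p under 0.05 in each, against 5.82% of all in L-dopa rats and 7.08% in saline-treated rats.

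The interaction of L-dopa and pramipexole in lesioned rats, the L-dopa difference with pramipexole minus that with saline conditioning, had 0 of 10 calls by limma, against 0% of all. At an unadjusted p under 0.05 it had 1 of 10, Pde4d, against 6.98% of all. The group means of Pde4d were 7.60 with both drugs, 7.76 with L-dopa, 7.74 with pramipexole and 7.65 with neither. The interaction was -0.25 ± 0.12 (limma adjusted p = 0.714). An F test over the 4 lesioned groups had 0 of 10 calls, against 0.00537% of all, and 1 of 10 at an unadjusted p under 0.05, Pde4b 1369044_a_at (limma adjusted p = 0.496), against 9.79% of all.

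In sham rats numbered 38 to 56, pramipexole was compared with saline in 7 against 7 saline-treated rats. limma called 0 of 10 probe sets, against 0% of all, and 0 of 10 had an unadjusted p under 0.05, against 6.32% of all. Pde10a averaged 11.13 ± 0.15 with pramipexole and 11.18 ± 0.17 with saline, and Pde1b (1384203_at) averaged 10.87 ± 0.21 with pramipexole and 10.85 ± 0.13 with saline (SD, n = 7). Pde4d 1392968_at had the smallest p of the 10, with a difference of 0.14 ± 0.08 (limma adjusted p = 0.846). In 6 of 7 pramipexole rats it lay above the saline mean. The Pde4d probe set 1370569_at, below the signal filter and not tested, averaged 5.16 ± 0.18 with pramipexole and 4.73 ± 0.19 with saline. The third, 1368750_a_at, averaged 2.77 ± 1.38 and 2.24 ± 1.23.

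L-dopa was compared with saline in 5 against 7 saline-conditioned sham rats of the same numbers. limma called 0 of 10 probe sets, against 0% of all, and 1 of 10 had an unadjusted p under 0.05, against 6.64% of all. Pde1b 1387680_at had 6.59, 6.71 and 6.96 as lowest, median and highest value with L-dopa and 4.67, 6.48 and 7.14 with saline, a difference of 0.48 ± 0.22 (limma adjusted p = 0.693). Without saline rat 53, the lowest, it was 0.21 ± 0.17 (limma adjusted p = 0.953). The Pde1b probe set with the higher signal differed by 0.01 ± 0.11. Pde10a averaged 11.25 ± 0.08 with L-dopa and 11.18 ± 0.17 with saline, a difference of 0.07 ± 0.11.

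**Figure D3:**
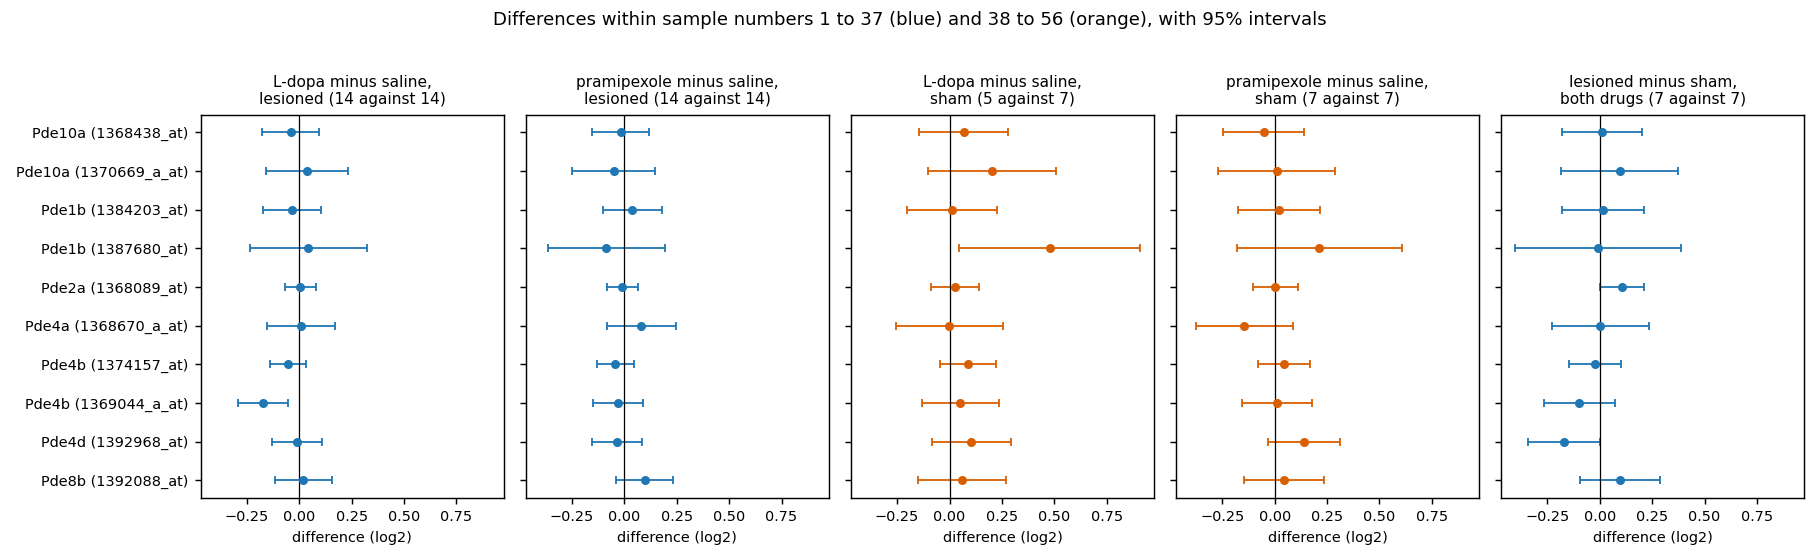
Log2 differences (points) with 95% intervals (bars) for the 10 tested probe sets in 5 comparisons that each lie inside 1 array set; the first named group minus the second, with rats per group in the panel titles. Of the 50 intervals 3 leave out 0: Pde4b 1369044_a_at for L-dopa in lesioned rats (-0.17), Pde1b 1387680_at for L-dopa in sham rats (0.48) and Pde4d for the lesion with both drugs (-0.17). None of the 3 passed after adjustment.

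Whether a drug effect differed between lesioned and sham rats was tested as the difference of the effects taken inside each array set. For pramipexole in saline-treated rats limma called 0 of 10 probe sets and 0% of all. Pde4a alone (1 of 10, against 6.7% of all) had an unadjusted p under 0.05, with 0.35 ± 0.16 (limma adjusted p = 0.716), made of a pramipexole difference of 0.21 in lesioned and -0.14 in sham rats. For L-dopa in saline-conditioned rats limma again called 0 of 10 and 0% of all. Pde4b 1374157_at (1 of 10, against 6.07% of all) had an unadjusted p under 0.05, with -0.19 ± 0.09 (limma adjusted p = 0.795). Its L-dopa difference was -0.10 in lesioned and 0.09 in sham rats, and the other Pde4b probe set had -0.22 ± 0.12.

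Between rats, in contrast, several members varied together. Within groups, Pde10a and Pde1b (1368438_at and 1384203_at) had a Pearson r of 0.85 (Spearman's rho 0.82, n = 56), Pde10a and Pde2a an r of 0.76 (rho 0.70) and Pde1b and Pde2a an r of 0.70 (rho 0.64). Without rats 22 and 9 these were 0.78, 0.70 and 0.61. Inside the array sets the Pde10a and Pde1b value was 0.88 in numbers 1 to 37 and 0.74 in numbers 38 to 56, that of Pde10a and Pde2a 0.80 and 0.69, and that of Pde1b and Pde2a 0.80 and 0.47. The other Pde1b probe set, 1387680_at, had a lower r of 0.55 with Pde10a and 0.54 with Pde2a. Pde10a and Pde4d (1392968_at) ran the other way, with r of -0.50 (rho -0.47). All these points share arrays and their scaling and the dissection of each rat.

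Pde10a, Pde1b, Pde2a and Pde4b also varied with the markers of medium spiny neurons. Pde1b had r of 0.89 with the D2 neuron score (rho 0.86) and 0.74 with the D1 neuron score (rho 0.68). Pde10a had r of 0.74 with the D2 score (rho 0.69), and Pde2a had 0.64 (rho 0.53). Without rats 22 and 9, whose deviations on the D2 score lay farthest from the median deviation, the 3 values were 0.85 for Pde1b, 0.64 for Pde10a and 0.53 for Pde2a. With the D1 score, r was 0.51 for Pde10a and 0.55 for Pde2a, and without the same rats 0.34 for Pde10a, 0.44 for Pde2a and 0.64 for Pde1b. The other Pde1b probe set, 1387680_at, had lower values, 0.58 with the D2 score and 0.51 with the D1 score. Without those rats they were 0.50 and 0.43.

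The Pde4b probe sets had r of 0.52 (1374157_at) and 0.62 (1369044_a_at) with the D2 score and of 0.59 and 0.55 with the D1 score. Without rats 22 and 9 the D2 values were 0.48 and 0.63. Pde4a had -0.15 with the D2 score and -0.13 with the D1 score. Pde4d (1392968_at) had -0.35 with the D2 score and -0.12 with the D1 score. Its r was also negative with the scores of oligodendrocyte markers (-0.41) and of endothelial and mural markers (-0.36).

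The cerebral cortex score ran opposite. Its r was -0.71 with Pde1b (rho -0.65), -0.61 with Pde10a (rho -0.56) and -0.46 with Pde2a (rho -0.36), and it was 0.50 with Pde4d (rho 0.42). Without rats 21 and 49, farthest from the median deviation on this score, these were -0.71 for Pde1b, -0.62 for Pde10a, -0.50 for Pde2a and 0.44 for Pde4d. In numbers 1 to 37 and 38 to 56 the Pde1b value was -0.72 and -0.70, while the Pde2a value was -0.55 and -0.26. Both Pde4b probe sets had r of -0.49 with the cortex score, the other Pde1b probe set (1387680_at) had -0.56, and Pde4a had 0.03. RNA quality, taken as 3 prime minus 5 prime control signal, had r of 0.09 with Pde1b, 0.13 with Pde10a and 0.01 with Pde2a.

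Rat 22 (Lesion saline saline) had the lowest signals of all 56 rats for Pde10a, Pde1b and Pde2a, with 10.66, 10.25 and 10.12, a D2 score of -0.51 and a cortex score of 0.53. Rat 3 (Lesion L-dopa ppx) had the highest Pde10a signal, 11.49, beside 11.18 for Pde1b, a D2 score of 0.42 and a cortex score of -0.51. The highest Pde1b signal was 11.19, in rat 44 (Sham saline ppx).

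**Figure D4:**
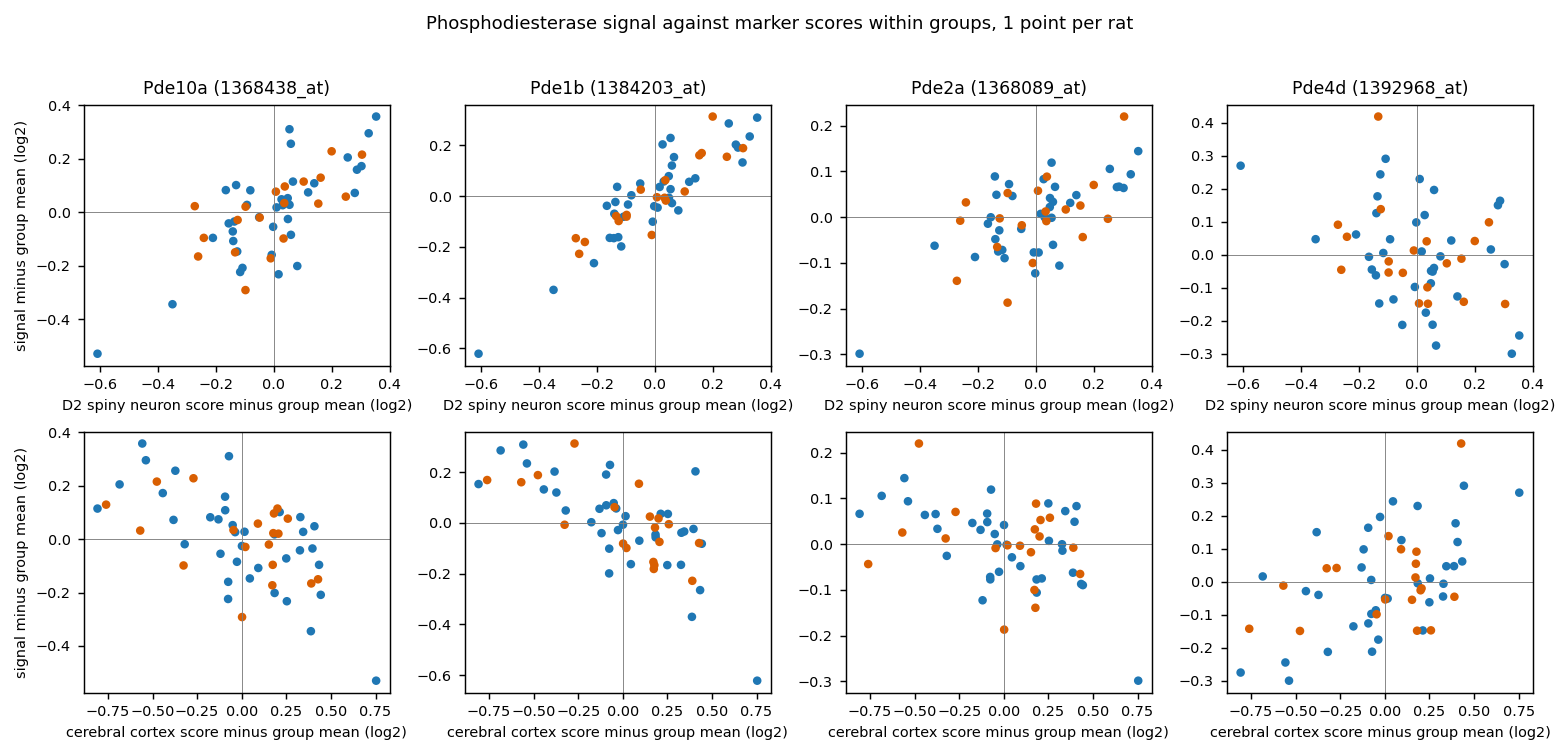
Signal of 4 phosphodiesterase probe sets minus the group mean (y axis, log2) against the D2 medium spiny neuron score (top) and the cerebral cortex score (bottom) minus the group mean (x axis, log2), 1 point per rat (blue, numbers 1 to 37; orange, 38 to 56). Pde1b climbs with the D2 score (r = 0.89) and descends with the cortex score (r = -0.71). Pde4d has the opposite slopes, both weaker (r = -0.35 with the D2 score and 0.50 with the cortex score).

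The genes whose deviations were most like those of each member, by Pearson's r over 56 rats among tested probe sets, were as follows. Rgs9, a striatal regulator of G protein signalling, and the transcription factor Foxp1 came closest to Pde10a, with r of 0.95 and 0.89. Ptpn5, the striatum-enriched tyrosine phosphatase, and the dopamine receptor Drd2 came closest to Pde1b, with 0.91 and 0.89. Pde2a was nearest to Pde10a itself (0.76) and Foxp1 (0.75). The values were lower for the others: Pde4b had Dpy19l3 (0.67) and Ggh (0.66), Pde8b had Usp24 (0.67) and Arglu1 (0.66), Pde4d had Alg2 (0.64) and Otud1 (0.63), and Pde4a had Cntn3 (0.53) and Pikfyve (0.49). Pde1c and Pde7b lay below the signal filter, and their nearest genes reached 0.53 (Abhd1) and 0.61 (Armcx3).

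Around these enzymes, 4 lists of the pathway were examined in the same fits, with 1 probe set per gene. Other phosphodiesterases had 6 tested of 15 listed, cyclases 10 of 20, effectors such as protein kinase A subunits and cyclic nucleotide channels 17 of 23, and G proteins, receptors and calmodulins upstream 12 of 16. limma called 0 genes in 3 of the lists in all comparisons. The smallest p for the lesion over all rats belonged to Pde9a among the other phosphodiesterases (-0.07 ± 0.04, limma adjusted p = 0.403), Gucy1b1 among the cyclases (-0.09 ± 0.03, limma adjusted p = 0.137) and Calm2 among the upstream genes (-0.04 ± 0.02, limma adjusted p = 0.276).

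The effector list had 1 of 17 genes called in the lesion comparison, in the downward direction, against 5.07% of all probe sets in either direction. Hcn2, a channel opened by hyperpolarisation and cAMP, averaged 5.88 ± 0.30 in lesioned rats and 6.22 ± 0.27 in sham rats (SD, n = 28), a difference of -0.34 ± 0.07 (limma adjusted p = 0.00229). The F test over the 8 groups called it as well (limma adjusted p = 0.0377). With the array set as a block the Hcn2 difference was -0.37 ± 0.17 (limma adjusted p = 0.998). Between the 2 and the 5 Sham L-dopa saline rats of the first and the second array set it was 0.04 ± 0.23. Inside numbers 1 to 37, with both drugs, the lesion difference was -0.15 ± 0.15 (limma adjusted p = 0.897). That comparison called 0% of all probe sets, so it cannot decide whether the call holds inside a set. The group means of Hcn2 were 5.92, 6.04, 5.83 and 5.72 in lesioned rats (both drugs, L-dopa, pramipexole and neither) and 6.07, 6.36, 6.21 and 6.24 in sham rats.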

How the data were processed

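Total RNA (100 ng) from the dorsal striatum of each rat was labelled with a 3' IVT kit and hybridised to Rat230_2 arrays, per the labels' protocols. The deposited values are log2 signals that the authors made with MAS5, per the submitters' processing notes; version and scaling target are not given in the sources used here. All arrays had the same trimmed mean of unlogged signal, and array medians lay between 5.62 and 5.82. Values were used as deposited. Detection calls were not used. Precision is set by how many arrays there are. Gene symbols came from the platform annotation.

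Groups came from the sample titles, without pairing. The model (limma 3.58.1, R 4.3.3) used all 56 arrays, with 8 group means for comparisons across array sets, and with Sham L-dopa saline divided at number 37 for those inside them. The 20 comparisons each used 18625 probe sets with a mean above the 40th percentile of the 31042 that are no controls, two-sided tests and Benjamini-Hochberg adjustment at 0.05. Scripts were tested on simulated data. Members, lists and the array set boundary were chosen with earlier results of these data known. Text values follow the probe set of highest mean signal per gene, called genes of the lists (otherwise the smallest p), and for likeness the 2 highest r. The labels do not say whether rats were handled in batches. The p-values set a difference against the spread between rats within groups, and a difference across array sets also carries that of the sets. Alternatives covered the filter, quantile normalization, 16 added to the unlogged signal, a trended robust prior, array weights, RNA quality, cortex and D2 neuron covariates, the array set as a block, only the compared groups, and each rat left out. Marker scores are means of centred log2 signals.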

Additional observations from a re-analysis of the deposited data

Results flagged for a closer look

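Within each group of 7 rats the highest and lowest signal of each probe set was set against its nearest neighbour (Dixon's 95% criterion), which by chance marks about 1 in 20 groups. Of 128 combinations of probe set and group, 13 were marked, 9 of them among the 80 with tested probe sets.

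In Pde10a (1368438_at), rat 9 (Lesion L-dopa saline) had 10.78, against 11.09 in the nearest rat. In Pde1b, rat 3 (Lesion L-dopa ppx) had 11.18 against 10.91 (1384203_at), and with 1387680_at rat 31 (Sham L-dopa ppx) had 5.98 against 6.54 and rat 53 (Sham saline saline) 4.67 against 6.24. Pde2a was at 10.32 in rat 37 (Sham L-dopa saline), against 10.38. That group holds rats of both array sets, and the gap crosses them: rat 37 is in the first set and the nearest, rat 41, in the second. Both Pde4b probe sets marked rat 27 (Lesion saline saline), with 9.67 against 9.48 (1374157_at) and 8.38 against 8.07 (1369044_a_at). Pde4d (1392968_at) was at 8.02 in rat 53, against 7.69, and Pde8b (1392088_at) at 6.70 in rat 55 (Sham saline saline), against 6.98.

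The other 4 were in low probe sets that were not tested. Pde1c had 2.32 in rat 8 (Lesion L-dopa saline; nearest 3.65, 1388020_a_at) and, with 1371219_a_at, -0.38 in rat 16 (Lesion saline ppx; nearest 2.35) and 1.30 in rat 54 (Sham saline saline; nearest 2.79). Pde4d 1368750_a_at had 0.67 in rat 10 (Lesion L-dopa saline; nearest 2.90).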

How the results depend on the processing

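The count of called phosphodiesterase probe sets was 0 in each of the 20 comparisons under the 11 alternative settings wherever a setting applied, and it was 0 in every comparison with each of the 56 rats left out in turn. The smallest adjusted p of any member was 0.169 as reported, between 0.133 (cortex score as a covariate) and 0.776 (array set as a block) over the settings, and 0.0525 without rat 55. The filter at the 60th percentile left 9 member probe sets and no filter left 16. The Pde4b 1369044_a_at difference for L-dopa in lesioned rats stayed negative in the 10 settings that gave it a value, and lay between -0.19 and -0.15 with each rat left out. Low signals limit Pde1c, Pde7b and the untested probe sets of Pde4d and Pde8b, and comparisons of 5 to 7 rats leave wide intervals. No paired analysis was possible because rat numbers are not shared between groups.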
